A study of Mus musculus with 8 samples.

Results

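The genes described are 9 components of the Hedgehog pathway, Gas1, Boc, Ptch1, Hhip, Smo, Sufu, Gli1, Gli2 and Gli3, measured in sorted mouse mammary tumour cells. They were found as the gene probes whose RefSeq accession maps to one of these symbols, 13 probes in all, of 22904 symbols that the arrays name. RNA came from tumours of mice with a pair of transgenes, which both populations carry. C(3)1 Tag drives SV40 T antigen, a viral oncoprotein that inactivates p53 and Rb, from the upstream sequence of a rat prostate steroid-binding protein gene that is active in mammary epithelium. sSHIP is a reporter in which an internal promoter of Inpp5d drives GFP. From each of 4 tumours, numbered 566, 567, 573 and 631 in the titles, lineage-negative cells with surface CD49f, the product of Itga6, were sorted into GFP-positive (Lin-CD49f+GFP+) and GFP-negative (Lin-CD49f+GFP-) cells, 1 array each, 8 arrays in all. A title number is taken here as a tumour. Whether tumours came from separate animals, and the animals' age, are not given in the sources used here, so p-values measure the spread between these samples.

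Hedgehog ligands bind Patched 1, the product of Ptch1, and this lifts its block on the membrane protein Smoothened, the product of Smo, in the primary cilium. Gas1 and Boc are surface co-receptors that help the ligand to bind, Hhip is a membrane decoy that captures it, and Sufu holds the Gli transcription factors back. Gli2 is the main activator and Gli3 the main repressor, and Gli1, Ptch1 and Hhip are themselves textbook target genes, read as signs of active signalling. In the mammary gland the pathway is mostly kept off in epithelium, with Gli3 as a repressor, while stromal cells can respond to ligand from neighbouring epithelium.

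A level here is log2 of the deposited processed intensity minus the 75th percentile of its array, so that 0 is that percentile. Levels of different genes come from different probes and are not set against each other. Gene spots well above background made up 53.5% to 58.5% on 7 arrays and 34.1% on the GFP-positive array of 573, where the lowest such intensity was 142 units against 13.4 to 23.5 elsewhere. All arrays shared 1 slide and 1 scan. The index that follows the slide barcode was 1 for all GFP-positive and 2 for all GFP-negative arrays, so what it stands for and the population cannot be told apart. Inpp5d differed by 1.98 between the populations (GFP-positive minus GFP-negative, log2; 2.74, 1.68, 1.28 and 2.23 in tumours 566, 567, 573 and 631), but in 573 the GFP-positive value was not well above background, so no direction can be given there. Itga6, Krt8, Krt14 and Epcam were well above background on all 8 arrays and the leukocyte gene Ptprc on 0. Of the 13 leukocyte and macrophage markers Ptprc was the only 1 on 0 arrays, and 2 were well above background on all 8. The GFP-negative array of 631 stood apart, with Epcam at -1.57 against 2.39 to 3.9 on the others and 10 of 12 luminal markers at least 2 log2 units below the median of the other 7 arrays, where no other array had any. Of the 12 basal markers 5 were that far below there, and Krt14 was at 1.26 against 4.13 to 6.28. Col1a1, a fibroblast marker, was well above background on 8 arrays, Rgs5 of pericytes on 7 and Pecam1 of endothelium on 6; which cells gave this RNA was not tested. In such sorted pools, fewer cells of a type and less RNA per cell cannot be told apart.

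Smo, Gli3, Boc and Gas1 were well above background on all 8 arrays. Ptch1 and Sufu missed this only in the GFP-positive cells of 573, and Gli1 only in the GFP-negative cells of 573. Gli2 was well above background in both populations of tumours 566 and 631 and in neither of 567 and 573, and Hhip in both populations of 567 and in no other sample by its brighter probe. Of the 9 genes, 7 could be compared between the populations, where a probe had to be well above background on all 4 arrays of 1 population, and Gli2 and Hhip could not. Ptch1 and Sufu passed only through the GFP-negative cells, and Gli1 only through the GFP-positive cells.

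**Figure D1:**
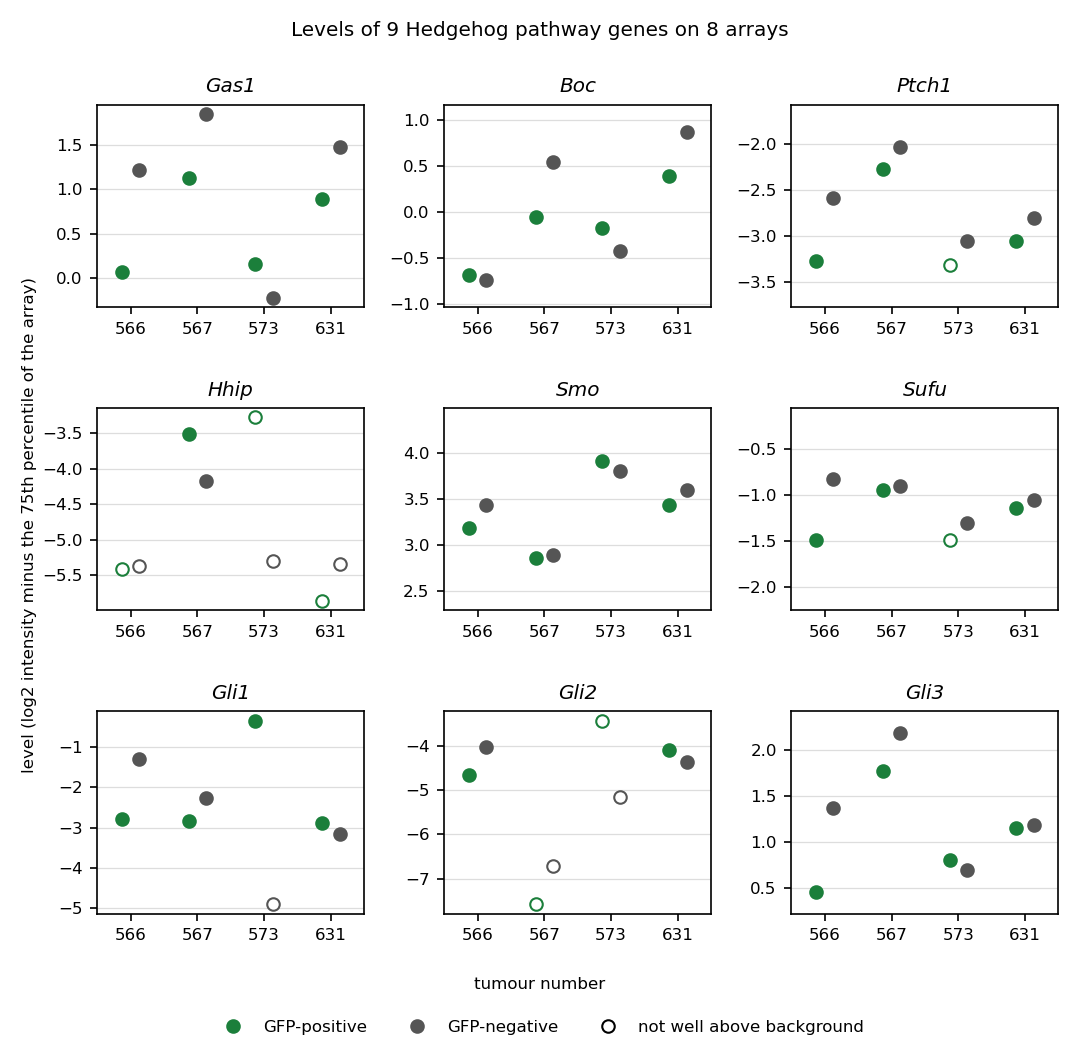
Level of each of the 9 genes (y axis, log2 intensity minus the array's 75th percentile; scales differ by panel) in GFP-positive (green) and GFP-negative (grey) cells by tumour number (x axis), 1 point per array, open where not well above background. Gas1, Boc, Ptch1 and Gli3 stood higher in 567 than in 566 in both populations. Smo stood highest in 573 at this scaling, and the Hhip probe was well above background in 567 alone.

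Gas1, the co-receptor anchored by a lipid tail, had levels in GFP-positive cells of 0.07, 1.13, 0.16 and 0.89 in tumours 566, 567, 573 and 631, and in GFP-negative cells of 1.22, 1.84, -0.22 and 1.47. It was lower in GFP-positive cells of 566, 567 and 631 and higher in those of 573, and the populations overlapped. The means were 0.56 ± 0.53 (SD, n = 4) and 1.08 ± 0.90 (SD, n = 4), a difference of -0.51 (SE 0.46; 95% interval -1.56 to 0.53; limma adjusted p 1.00). Over single arrays left out it ranged from -0.95 (GFP-negative cells of 573) to -0.26 (GFP-negative cells of 567). By tumour, the means ran from 1.48 in 567 through 1.18 in 631 and 0.65 in 566 to -0.03 in 573, and each neighbouring pair in that order overlapped.

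Boc, an immunoglobulin-family co-receptor, had levels in GFP-positive cells of -0.68, -0.06, -0.18 and 0.40 in the same order of tumours, and in GFP-negative cells of -0.74, 0.54, -0.43 and 0.87. The sign of its difference was split, with higher values in GFP-positive cells of 566 and 573 and lower values in those of 567 and 631. The means were -0.13 ± 0.44 and 0.06 ± 0.76 (SD, n = 4 each), a difference of -0.19 (SE 0.40; 95% interval -1.10 to 0.71). Leaving out the GFP-negative array of 631 turned it to 0.08. The order of tumours was 631, 567, 573 and 566, with means of 0.63, 0.24, -0.30 and -0.71, and only the arrays of 631 and 567 overlapped. The Boc spot on the GFP-negative array of 567 had a local background of 78.0 units, 3.63 times that array's median. Without that array the difference between populations was -0.03, and what the background added to the value was not tested.

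Ptch1, the receptor and a target of Gli, was dim throughout. Its levels in GFP-positive cells were -3.27, -2.27, -3.32 and -3.05, and in GFP-negative cells -2.59, -2.04, -3.05 and -2.81, with intensity between 34.2 and 137 units. It was lower in GFP-positive cells of 566, 567 and 631, by -0.68, -0.24 and -0.24, or 1.60-, 1.18- and 1.18-fold, while the populations overlapped across tumours. In 573 the 34.2 units of GFP-positive cells lay under that array's limit of 142, which is above the 51.4 units of GFP-negative cells, so no direction can be given there, though the value enters the means. The means were -2.98 ± 0.48 and -2.62 ± 0.43 (SD, n = 4 each), a difference of -0.36 (SE 0.31; 95% interval -1.06 to 0.35; limma adjusted p 1.00). Over single arrays left out it ranged from -0.59 (GFP-positive cells of 567) to -0.16 (GFP-negative cells of 567). With the tumour as a block the interval was -0.71 to -0.0025, the unadjusted p 0.049 and the limma adjusted p 0.887. That fit holds the 573 pair, and without it the block gave -0.39 (SE 0.19, limma unadjusted p 0.087). The difference was -0.85 after quantile normalization and -0.13 with normexp. With all arrays held to the floor of the GFP-positive array of 573, each Ptch1 value lay at that floor. A dimmer Ptch1 probe differed by -1.58, -0.21, 1.06 and -0.60. This probe was well above background only in GFP-negative cells of 566 and 573 and in GFP-positive cells of 567. No tumour thus had it well above background in both populations. In 573 its 32.6 units in GFP-positive cells also lay under the limit of 142, so the 1.06 gives no direction. By tumour, 567 stood above 631 and 566 without overlap, at means of -2.16, -2.93 and -2.93, and 631 and 566 overlapped; 573 has only a bound in GFP-positive cells and the lowest level in GFP-negative cells.

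Hhip, the decoy receptor, had levels of -5.41, -3.51, -3.28 and -5.87 in GFP-positive cells and of -5.37, -4.18, -5.30 and -5.34 in GFP-negative cells. Its probe was well above background in tumour 567 alone, at 50.4 and 31.0 units in GFP-positive and GFP-negative cells, against 8.8 to 13.7 units in 566, 631 and the GFP-negative cells of 573. The 35.2 units in GFP-positive cells of 573 lie under that array's own raised limit. The higher of the probe's own signal and the lowest signal well above background was taken as the bound on the dim side. By this probe Hhip was at least 2.21-fold higher in 567 than in 566 and at least 2.06-fold higher than in 631. Against 573 no fold can be given. A second Hhip probe was well above background on both arrays of 567, at 31.6 and 35.3 units, and on the GFP-negative array of 631, at 30.1 units. Its levels there were -4.18 and -3.99 in 567 and -3.87 in 631. This probe thus does not bear out the bound against 631 in GFP-negative cells.

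Smo, the signal transducer, was bright in every sample. Its levels in GFP-positive cells were 3.18, 2.86, 3.92 and 3.43, and in GFP-negative cells 3.43, 2.90, 3.81 and 3.60, with intensity from 3716 to 6111 units. At this scaling the sorted populations of a tumour lay close together, with differences of -0.25, -0.03, 0.11 and -0.16. The tumour means spanned 0.98 at this scaling, more than any of these differences, though the neighbouring means of 631 and 566 lay only 0.21 apart. The population difference was -0.08 (SE 0.29; 95% interval -0.74 to 0.58), and its sign turned to 0.08 without the GFP-positive array of 567 and to 0.04 without the GFP-negative array of 573. By tumour the order was 573, 631, 566 and 567, with means of 3.86, 3.51, 3.31 and 2.88. No neighbours in it overlapped, though arrays of 631 and 566 came as close as 3.4334 and 3.4326. At this scaling Smo was thus highest in 573 and lowest in 567, where Gas1 and Gli3 had 567 at the head and 573 at the end. With the arrays centred on their median, Smo was highest in 631. Its levels there were 7.74 and 7.80 in GFP-positive and GFP-negative cells, against 7.14 and 7.71 in 573. Its tumour means then spanned 0.55 (limma F test adjusted p 0.743), and its populations in 573 differed by -0.56.

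Sufu, the cytoplasmic inhibitor of Gli proteins, had levels of -1.49, -0.95, -1.49 and -1.15 in GFP-positive cells and of -0.82, -0.90, -1.31 and -1.06 in GFP-negative cells. It was lower in GFP-positive cells of 566, 567 and 631, by -0.67, -0.05 and -0.09, so that 566 held the largest of these gaps. In 573 the 121 units of GFP-positive cells were not well above background, and no direction can be given. The means were -1.27 ± 0.27 and -1.02 ± 0.21 (SD, n = 4 each), a difference of -0.25 (SE 0.21; 95% interval -0.73 to 0.23). Centring the arrays on their median gave 0.17 in 567 and 0.01 in 631, so the direction in those tumours depends on the scaling, and the mean over the Sufu probes was -0.02. Tumour means of Sufu spanned 0.47, from -0.92 in 567 to -1.40 in 573, where 1 value is not well above background (limma F test adjusted p 0.418).

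Gli1, the target gene most used as a read-out of the pathway, had intensity of 59.6, 81.0, 267 and 68.9 units in GFP-positive cells of 566, 567, 573 and 631, and of 228, 117, 14.3 and 49.7 units in GFP-negative cells. The corresponding levels were -2.78, -2.83, -0.35 and -2.90, and -1.31, -2.27, -4.90 and -3.15. Gli1 was lower in GFP-positive cells of 566 and 567 and higher in those of 631 and 573, by -1.47, -0.56, 0.25 and 4.55, and the 4.55 sets the highest of all 8 values against the only value not well above background. The mean difference was 0.69 (SE 0.83; 95% interval -1.19 to 2.58; limma adjusted p 1.00). It was 0.07 without the GFP-positive array of 573, 0.03 without its GFP-negative array and -0.59 (SE 0.45) without both. With a common floor it was 0.23, and with normexp 0.29.

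The Gli1 spot on the GFP-positive array of 573 lay where that array's local background was raised. The background around it was 106.5 units, 4.26 times the array's median of 25 units, against 22.0 to 29.0 units around the Gli1 spot on the other 7 arrays. Of that array's gene spots 2595 (4.38%) had a local background of at least 3 times the median, and of these 94.0% were called well above background, against 31.4% of the rest. Among such spots 811 were dim on all other arrays, and their intensity had quartiles of 167 and 270 units, a range that includes the 267 units of Gli1. Spots dim elsewhere but outside the raised region had quartiles of 30.8 and 35.0 units. The share of the local background in the Gli1 value was not tested.

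**Figure D2:**
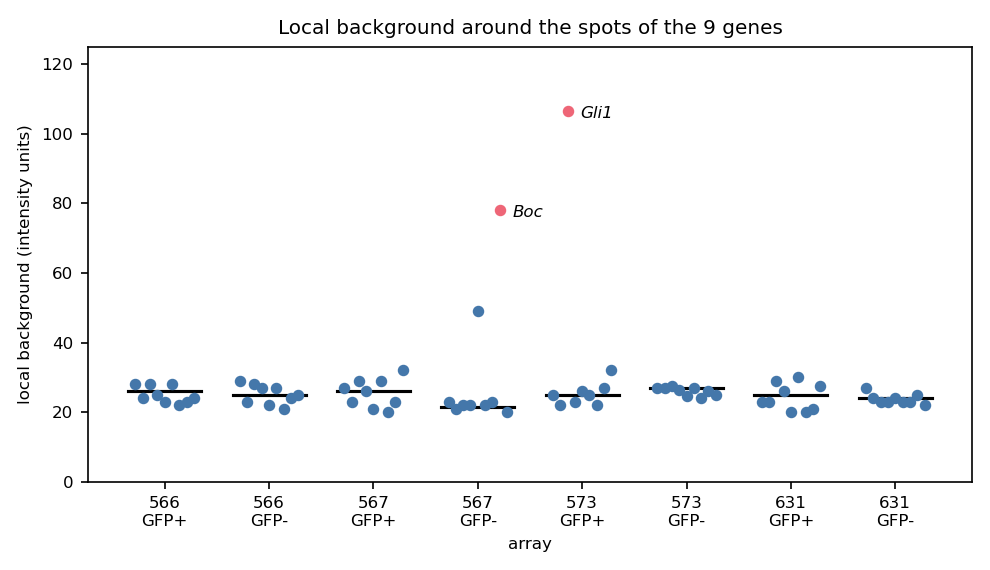
Local background (y axis, intensity units) around the spot of the main probe of each of the 9 genes on each array (x axis; GFP+ and GFP- by tumour number), 1 point per gene, with a line at the median over all gene spots of the array. The Gli1 spot on the GFP-positive array of 573 (106.5 units) and the Boc spot on the GFP-negative array of 567 (78.0 units) lie at over 3 times the median of their array.

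Gli2, the main activator, had levels of -4.65, -7.58, -3.43 and -4.10 in GFP-positive cells and of -4.02, -6.72, -5.16 and -4.36 in GFP-negative cells. Intensity was 16.3 and 34.8 units in GFP-positive and GFP-negative cells of 566 and 30.0 and 21.5 units in those of 631, all well above background, and 3.0 and 5.3 units in those of 567. It was at least 1.58-fold higher in 566 than in 567 and at least 1.71-fold higher in 631 than in 567. The values of 573, 31.5 and 11.9 units, were not well above background and allow no fold. Within 566 Gli2 was lower in GFP-positive cells by -0.63, and within 631 it was higher by 0.26.

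Gli3, the main repressor, was well above background throughout, with levels of 0.46, 1.78, 0.80 and 1.15 in GFP-positive cells and of 1.38, 2.19, 0.69 and 1.19 in GFP-negative cells. It was lower in GFP-positive cells of 566 and 567, by -0.92 and -0.41, and differed by 0.11 in 573 and -0.04 in 631. The means were 1.05 ± 0.56 and 1.36 ± 0.62 (SD, n = 4 each), a difference of -0.31 (SE 0.38; 95% interval -1.18 to 0.55). Over single arrays left out it ranged from -0.56 (GFP-positive cells of 567) to -0.04 (GFP-negative cells of 567). By tumour, 567 was highest with a mean of 1.98 and no overlap, and 631, 566 and 573 followed at 1.17, 0.92 and 0.75 with overlap between neighbours. Its spot on the GFP-negative array of 567 had a local background of 49 units against an array median of 21.5, beside an intensity of 2559 units. Gli3 and Gli2 thus ran opposite ways in tumour 567, where Gli3 was at its highest and Gli2 was not well above background.

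Between the populations limma called 0 of the 7 genes, and 0 of all 20265 genes tested (0%), at an adjusted p under 0.05. At an unadjusted p under 0.05 there were 161 of all genes (0.794%) and 0 of the 7. With the tumour as a block there were 0 calls, and 1118 genes (5.52%) and Ptch1 alone of the 7 at an unadjusted p under 0.05. With both arrays of 573 left out of that fit there were 1197 genes (5.91%) and Gas1 alone of the 7. Its limma unadjusted p was 0.0052 and its adjusted p 0.703, and the unadjusted p of Ptch1 was 0.087. The 95% intervals of the 7 genes reached down to -1.56 for Gas1 and up to 2.58 for Gli1.

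Mean differences were below 0 for 6 of the 7 genes, all but Gli1, as for 63.8% of all genes (79.6% with the arrays centred on their median, where it was also 6 of 7). Ptch1 and Sufu entered only through GFP-negative cells and Gli1 only through GFP-positive cells, so the filter favoured the sign of their means. Smo, Gli3, Boc and Gas1, which entered through both, were each below 0, as for 62.3% of genes well above background on all 8 arrays. The median over the 7 was -0.25 against -0.06 over all genes. By tumour, 6 of 7 were lower in GFP-positive cells of 566 (48.3% of all genes), 7 in 567 (51.7%) and 6 in 631 (69.3%). Several of these differences lie near 0, and with median scaling the counts were 6, 5 and 4. In 573 the 4 genes measured on all arrays, Smo, Gli3, Boc and Gas1, were higher in GFP-positive cells by 0.11 to 0.38, but with median scaling all 4 were lower there, by -0.56 to -0.29, so the direction in 573 depends on the scaling.

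With both arrays of 573 left out, the differences were -0.81 for Gas1, -0.59 for Gli1, -0.46 for Gli3, -0.39 for Ptch1, -0.34 for Boc, -0.27 for Sufu and -0.15 for Smo, all below 0 as for 61.6% of all genes, and limma called 0 of 7 and 0 of all genes (191 at an unadjusted p under 0.05). Without the GFP-negative array of 631 they were 0.61 for Gli1, 0.08 for Boc, -0.03 for Smo, -0.26 for Sufu, -0.37 for Gli3, -0.38 for Gas1 and -0.42 for Ptch1, again with 0 calls (213 of all genes at an unadjusted p under 0.05). Of all genes tested over 4 tumours, 2.75% had a lower mean difference than Gas1, 7.08% than Ptch1, 9.50% than Gli3 and 15.2% than Sufu. None of these differences passed the test.

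**Figure D3:**
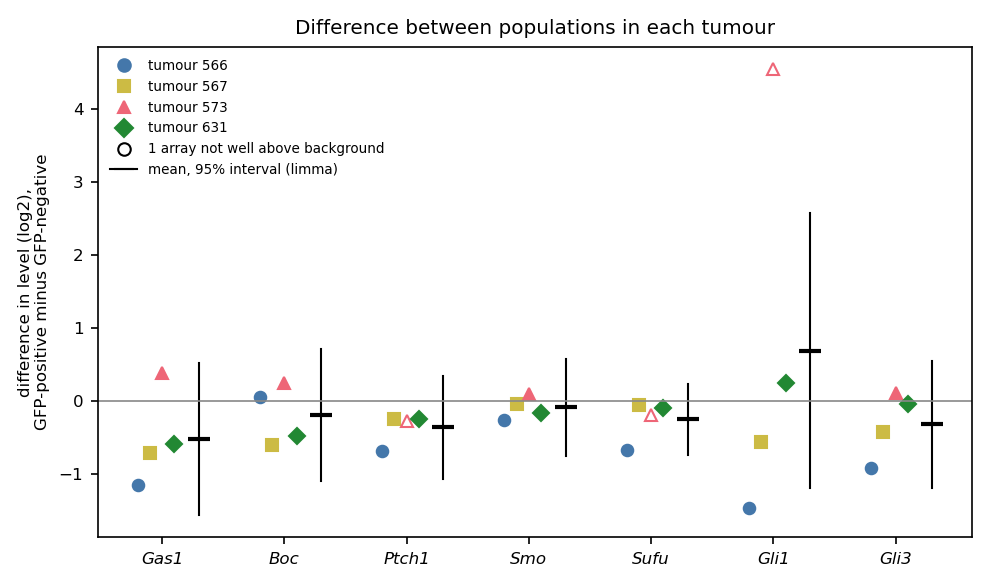
Difference in level between GFP-positive and GFP-negative cells (y axis, log2) for the 7 genes tested (x axis), 1 coloured point per tumour, open where 1 of the arrays was not well above background, with limma's mean and 95% interval in black. Each interval includes 0; the Gli1 point of tumour 573 at 4.55 lies apart from the other Gli1 points, which run from -1.47 to 0.25.

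Cell type markers moved between the populations too. Of 12 pericyte and mural markers, 12 had a mean difference below 0 (median -1.29), led by Rgs5 at -2.85 and Higd1b at -2.83. Their summed level, on a linear scale where 1 is the array's 75th percentile, was 36.4 to 63.0 in GFP-positive and 57.5 to 97.1 in GFP-negative cells, lower in each tumour. Neither Rgs5 nor Higd1b was well above background in GFP-positive cells of 573. Pdgfrb, the growth factor receptor of mural cells, was lower by -1.40. Fibroblast markers had a median difference of 0.72 over 9 tested, with sums of 15.0 to 245 in GFP-positive and 18.8 to 147 in GFP-negative cells, and luminal markers a median of 1.19 over 12, with sums of 346 to 618 and 340 to 485, beside the 10 luminal markers that were low on the GFP-negative array of 631. Basal markers had a median of 0.52 over 12 tested, endothelial markers 1.54 over 7, leukocyte markers -0.81 over 6 and proliferation genes 0.03 over 8. Their part in the differences of the Hedgehog genes was not tested.

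Between tumours, with the population as a covariate, limma's F test called 0 of the 9 genes, where it called 5132 of 24792 genes (20.7%). At an unadjusted p under 0.05 there were 6 of 9 (66.7%), Boc, Gas1, Gli2, Gli3, Ptch1 and Smo, against 42.6% of all genes. Gli2 and Hhip entered this test only through the tumours where they are bright, and so had to differ. Limma adjusted p-values were 0.057 for Gli2, 0.063 for Boc and Ptch1, 0.064 for Smo, 0.089 for Gli3, 0.100 for Gas1, 0.163 for Hhip and 0.928 for Gli1. The 4 genes well above background on all 8 arrays were also tested only among such genes, where 35.3% of 13279 genes were called. Their limma adjusted p-values were 0.025 (Boc), 0.029 (Smo), 0.040 (Gli3) and 0.046 (Gas1). For Smo this depends on the scaling, as centring the arrays on their median, with 24792 genes tested, gave a limma adjusted p of 0.743.

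Among the genes measured on all arrays, the tumour means spanned 1.51 for Gas1, 1.34 for Boc, 1.23 for Gli3 and 0.98 for Smo, against a median of 0.96 over all genes; for Gli2 and Hhip only the at-least folds above can be given. Without the GFP-positive array of 573 Gas1 was called (limma adjusted p 0.040), where 16.4% of all genes were. Fibroblast sums were lowest in 573, at 15.0 and 18.8, against 55.8 to 245 elsewhere. Pericyte sums ran from 36.4 and 57.5 in 573 to 63.0 and 97.1 in 631. Linear sums weigh the brightest marker most, here Mcam, and single markers such as Rgs5 and Higd1b need not follow this order. The Mcam spot on the GFP-positive array of 573 had a local background of 84 units, 3.36 times the array's median. Spots of other listed genes lay on raised local background there too, and the sums and counts of the lists hold these values. The part of fibroblasts and pericytes in the tumour differences was not tested.

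Among themselves, the genes closest in pattern over the 8 arrays were Ptch1 and Gli3, with a mean absolute difference of 0.14 once each gene's own mean was taken off, then Ptch1 and Sufu at 0.21 and Gli3 and Gas1 at 0.26. By the same measure, over all tested genes with a symbol, the nearest to Ptch1 were Sphk1 (0.11), Hps4 (0.12) and Diaph2 (0.12), the nearest to Smo were Usp28, Lancl2 and BC051142 (0.09 each), and the nearest to Gli3 were Sh2b3 (0.12), Slc7a1 (0.13) and Asb1 (0.14). Nearest to Boc were Sgpp1 (0.10), Ap1m1 (0.12) and Wdr7 (0.12), to Gas1 Mical1 (0.16), Pkd1 (0.17) and Tpst2 (0.20), and to Sufu Tmem253, Mbd6 and Rrp1b (0.05 each). For the dimmer genes the nearest lay further off, with Dpf1 (0.38), Lcat (0.41) and Six4 (0.45) for Gli1, Amigo2 (0.28), Prickle2 (0.30) and Tg (0.31) for Gli2, and Klhl1 (0.34), Mdga1 (0.35) and Slc7a11 (0.37) for Hhip. These are descriptions over arrays that share tumours, slide and scaling, and values not well above background entered as measured. The Gli1 pattern holds the value on raised local background in GFP-positive cells of 573. Its nearest genes share the gap there, such as Dpf1 at -1.24 in GFP-positive and -5.18 in GFP-negative cells of 573.

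Of the ligands, Shh was well above background on 0 arrays, and Ihh and Dhh on 7 of 8, all but the GFP-positive array of 573. Ihh, Indian hedgehog, had levels of -2.0, -3.03, -3.41 and -4.66 in GFP-positive and -0.96, -1.44, -2.95 and -4.24 in GFP-negative cells of 566, 567, 573 and 631. It was lower in GFP-positive cells of 566, 567 and 631, by -1.04, -1.59 and -0.42, with no direction to be given in 573, and in each population tumours 566 and 567 lay above 631. The mean difference was -0.88 (SE 0.78; limma adjusted p 1.00), and tumour means spanned 2.97 (limma F test adjusted p 0.022). Dhh, Desert hedgehog, was higher in GFP-positive cells of 566, 567 and 631, by 0.09, 0.49 and 0.16, and no direction can be given in 573. Its tumours differed (limma F test adjusted p 0.032), with the lowest level in GFP-negative cells in 573, at -3.05 against -1.0 to -0.10; the value of its GFP-positive cells was not well above background.

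Of 12 genes for ligands and their release, 7 were tested between populations with 0 called (4 lower, 3 higher, median -0.15). The smallest p-values belonged to Gpc5, Gpc3, both glypicans, and Ihh, at -0.54, 1.44 and -0.88. Between tumours 5 of 10 were called, Ihh, Dhh, Disp1, Scube1 and Scube3, where 20.7% of all genes were called. Any gene that entered this test only through tumours where it is bright had to differ, as for Gli2 and Hhip. Calls over all genes were 0 without any 1 of the arrays of 566 and 567. Both limits hold for each count between tumours here. Of 12 further genes for reception, 11 were tested with 0 called (7 lower, 4 higher, median -0.05), and 0 of 11 between tumours. The co-receptor Cdon had levels of 0.84, 0.67, 1.42 and 0.89 in GFP-positive and 1.47, 1.02, 0.95 and 1.05 in GFP-negative cells. Like Gas1, it was lower in GFP-positive cells of 566, 567 and 631 and higher in those of 573 at this scaling, with a mean difference of -0.16 (SE 0.23). The Cdon spot on the GFP-positive array of 573 had a local background of 59 units against an array median of 25. What this background added to the value was not tested.

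Genes for Gli processing and degradation were tested in 18 of 19 cases, with 0 called (14 lower, 4 higher, median -0.11), and 2 of 19 were called between tumours, the kinases Csnk1e (range 1.88) and Prkacb (range 1.22). Of 22 genes for the cilium on the arrays, 0 were called between populations (13 lower, 9 higher, median -0.01) and 0 between tumours; Ift88, needed for transport into the cilium, was well above background on all 8 arrays and differed by 0.24 (SE 0.28).

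Reported Gli targets outside the 9 genes were 32, of which 25 were tested between populations with 0 called (11 lower, 14 higher, median 0.0034). Between tumours 31 were tested with 13 called, against 20.7% of all genes. Targets that entered the test between tumours only where they are bright had to differ. The smallest p between populations was that of the chemokine gene Cxcl12, higher in GFP-positive cells by 1.36 (SE 0.67; unadjusted p 0.005 with the tumour as a block, limma adjusted p 0.850). Ccnd1, cyclin D1, had levels of 1.61, 3.29, 0.44 and 3.07 in GFP-positive and 1.51, 2.72, 0.87 and 3.63 in GFP-negative cells. It was high in 567 and 631 and low in 573 in both populations, with tumour means spanning 2.70 (limma F test adjusted p 0.021). Foxf2, a forkhead factor of stromal cells, had its highest levels in 631, at -0.70 and -0.32 (limma F test adjusted p 0.024). The order of tumours thus differed among targets, with 567 above 631 for Ptch1 and 631 above 567 for Foxf2.

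**Figure D4:**
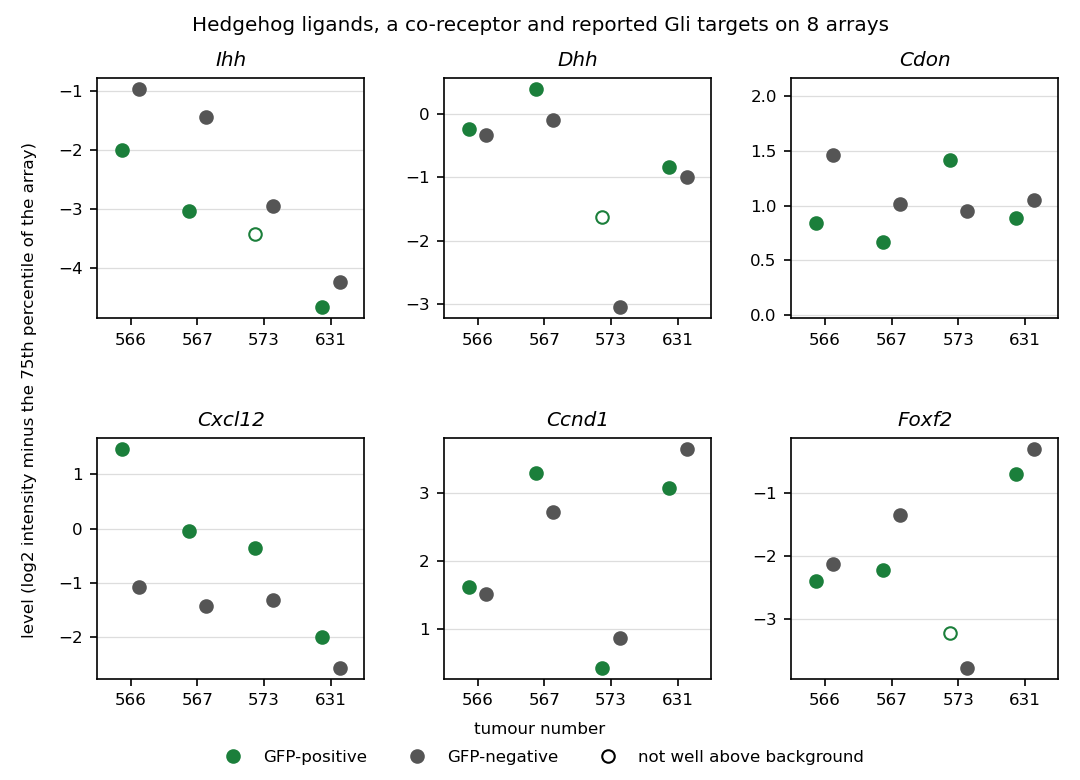
Level (y axis, log2 intensity minus the array's 75th percentile; scales differ by panel) of the ligand genes Ihh and Dhh, the co-receptor gene Cdon and the reported Gli targets Cxcl12, Ccnd1 and Foxf2 in GFP-positive (green) and GFP-negative (grey) cells by tumour number (x axis), 1 point per array, open where not well above background. Ihh is lower and Dhh higher in GFP-positive cells of 566, 567 and 631, and Cxcl12 is higher in those of each tumour.

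The consensus motif of Gli proteins, GACCACCCA, was searched on both strands in RefSeq promoter windows of 300 bases (GRCm38.p6), from 250 before to 50 after the start. Windows were at hand for 7 of the 9 genes, not for Gli1 and Boc, and 0 of the 7 held it, against 83 of all 32851 windows (0.253%). With so low a share 7 windows are too few to tell whether these genes lack Gli sites, and sequence outside the windows was not searched.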

How the data were processed

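Total RNA was labelled with Cy3 and hybridised to 1-colour Agilent arrays, 1 per sample. Per the file headers, what the authors deposited is linear intensity from Agilent Feature Extraction 10.7.3.1, background-subtracted and not normalized between arrays. With 4 arrays per population, their number limits the precision. Control and outlier spots were dropped, spots of a probe averaged as log2, and the array's 75th percentile taken off. Accessions were matched to a RefSeq table (GRCm38.p6) for names alone, which named 32969 of 56555 probes; the gene's brightest passing probe was used. Tests were run in limma 3.58.1 (R 4.3.3), adjusted by Benjamini-Hochberg, with calls at 0.05 and no block between populations. Between tumours, probes had to be well above background on both arrays of 1 tumour. Same-numbered arrays deviated together (correlations 0.573, 0.695, 0.642 and 0.741; at most 0.221 across numbers), so the numbers pair the arrays. The 9 genes and the lists were chosen with earlier results of these data known. Named genes are the 9, up to 3 per list with the smallest p in each comparison, the 3 nearest to each of the 9, and a set of markers and pathway genes; Disp1 and Scube1 were named after their values were seen. Alternatives varied scaling, background correction, filters, variance model, blocks and the samples left out. The fits were tested on simulated data. A gene of the reception list is counted with its list and not reported by name here.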

Additional observations from a re-analysis of the deposited data

Results flagged for a closer look

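In groups of 4 arrays, 7 of the 70 groups checked for 35 genes had an array set apart from the other 3 by Dixon's 95% criterion, where chance gives about 1 in 20. Gli1 in GFP-positive cells of tumour 573 was at -0.35, with the others from -2.90 to -2.78; it is the spot on raised local background. Hhip in GFP-negative cells of tumour 567 was at -4.18, with the others, none well above background, from -5.37 to -5.30. Of the markers, Col1a1 in GFP-positive cells of 573 was at -0.30 (others 4.47 to 5.32) and Epcam in GFP-positive cells of 631 at 2.43 (others 3.37 to 3.52). Pecam1 stood apart in both populations, at -1.19 in GFP-positive cells of 566 and, not well above background, at -5.11 in GFP-negative cells of 567. Inpp5d in GFP-positive cells of 573 was at -3.25, not well above background. Of the 7 flags, 3 fell on the GFP-positive array of 573.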

How the results depend on the processing

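Between populations 0 genes and 0 Hedgehog genes were called under each of the 26 alternatives. The tumour as a replicate block, fixed or random, changed no call (0 of 20265 genes, with 1118 and 1016 at an unadjusted p under 0.05). Calls between tumours depended on the processing. Of all genes, 1187 (4.79%) were called after quantile normalization, 8354 (33.7%) with normexp, 7263 (29.3%) with median scaling, 6607 (26.7%) with the population left out, 762 (3.07%) with a common floor, 0 without a filter (7640 at an unadjusted p under 0.05) and 7821 (31.5%) with a trended, robust variance, and 0 to 5218 with samples left out: 0 without either array of 566 or of 567, and 1062 without the GFP-negative array of 631. Without tumours 566, 567 and 631 they were 1486, 691 and 2158. Of the Hedgehog genes, 6 were called with median scaling, 3 with normexp, 4 of 4 with the filter on all 8 arrays (35.3% of genes), 4 with a trended, robust variance, 3 with the population left out, and 0 to 2 with samples left out. Directions that turned were those of Gli1, at -0.59 without tumour 573 (with the block too), against 1.41 without tumour 566, Smo, from -0.27 to 0.078, and Boc, from -0.46 to 0.078, with samples left out. The cause was not tested. With a common floor Ptch1, Gli2 and Hhip lay at the floor and gave no value. The raised limit of the GFP-positive array of 573 bounds what can be said of Ptch1, Sufu, Gli2 and Hhip there.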
